A study of Mus musculus with 6 samples.

Results

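The Bcl-2 family comprises the proteins that decide whether the outer mitochondrial membrane is opened during apoptosis. The genes described here were 10 family members chosen by symbol, 4 of them pro-survival (Bcl2, Bcl2l1, Mcl1 and Bcl2a1b) and 6 pro-death (Bax, Bak1, Bcl2l11, Bid, Bbc3 and Pmaip1). Of these 10 symbols, 9 matched a row among the 11162 genes of the expression table. Bak1 did not match, and its expression is not analysed here. All 9 matched members had a mean of at least 1 RPKM (reads per kilobase of transcript, scaled to a read total of the library) and entered the test. They were compared between 3 GFP-hi and 3 GFP-lo libraries of mouse naive CD8 T cells. A log2 difference below is the log2 fold change of RPKM + 1, GFP-hi over GFP-lo, so a negative value is lower in GFP-hi cells.

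Both populations came from the spleen of mice with the genotype Nur77-GFP (Tg(Nr4a1-EGFP)GY139Gsat). In this transgene the regulatory region of Nr4a1, a gene switched on by T-cell receptor signals, drives a green fluorescent protein. Every sample was also labelled OT-I, the name of a transgenic T-cell receptor for an ovalbumin peptide. Cells were sorted as CD8+, CD44lo and Qa2hi, among other markers, and the reporter then divided them into Nur77-GFPhi and Nur77-GFPlo cells. The labels carry no treatment, age, pooling or animal number, so the p-values measure the spread between these libraries, which may be technical. OT-I cells share a receptor, so other T-cell receptors are not represented.

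Pro-survival family members bind and restrain the death-inducing ones, and a naive T cell lives only while they prevail. BH3-only proteins such as BIM (Bcl2l11), BID, PUMA (Bbc3) and NOXA (Pmaip1) carry stress or signal-dependent information to the family. BAX and BAK form the membrane pore through which cytochrome c leaves. In peripheral T cells, interleukin 7 signalling is known to sustain BCL-2, and T-cell receptor signalling is known to act on BIM, BCL-xL (Bcl2l1) and A1 (Bcl2a1).

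In GRCm38.p6 the 8 matched members other than Pmaip1 lie at chr1:106538176-106714290 (Bcl2), chr2:152758732-152833803 (Bcl2l1), chr3:95656944-95663179 (Mcl1), chr9:89199273-89207838 (Bcl2a1b), chr7:45461695-45466903 (Bax), chr2:128126038-128162547 (Bcl2l11), chr6:120893119-120917062 (Bid) and chr7:16308398-16318334 (Bbc3). Sequences are shown for the upstream stretches of Bcl2l11 and Bbc3 that hold a FOXO motif, and for the A1 copies, whose likeness limits what a read count can say. RefSeq promoter entries (GRCm38.p6) were searched for 9 of the 10 members, Bak1 included and Pmaip1 not, over the 250 bases before each of 14 annotated starts. The motifs were TGTTTAC, bound by FOXO factors, and AAAGGTCA, bound by Nur77 as a monomer, on both strands. TGTTTAC occurred upstream of 2 members, Bcl2l11 and Bbc3, and in 3.54% of all 27025 genes with an entry. The members had 14 windows for 9 genes, and 3.17% of all 32851 windows held the motif. AAAGGTCA occurred upstream of 0 members and of 1.55% of all genes. A match describes letters and no binding, and a missing match applies only to this window. In the lines below the capitals mark TGTTTAC or its reverse complement.

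Bcl2l11, chr2:128125800-128125829, plus strand: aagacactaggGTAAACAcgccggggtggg
Bbc3, chr7:16310083-16310112, plus strand: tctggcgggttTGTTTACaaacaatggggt

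The Bcl2l11 match ended 220 bases before the first of 2 annotated starts, and the Bbc3 match 160 bases before the second of 3 annotated starts. Neither stretch overlapped an exon in GENCODE M21, and the Bbc3 stretch lay in an intron of the longer Bbc3 transcripts. The Bcl2l11 stretch lay in no GENCODE transcript, but inside the Acoxl gene as RefSeq places it, at chr2:127838797-128126252. Mouse A1 is encoded by several copies. The coding sequence of Bcl2a1b differed from that of Bcl2a1d at 6 of 519 bases and from that of Bcl2a1a at 11. The first 60 coding bases of the GENCODE transcripts hold 6 of the 12 positions at which the 3 copies differ, shown in capitals.

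Bcl2a1a: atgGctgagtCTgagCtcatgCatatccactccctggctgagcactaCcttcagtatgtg
Bcl2a1b: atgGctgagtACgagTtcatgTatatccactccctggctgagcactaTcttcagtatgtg
Bcl2a1d: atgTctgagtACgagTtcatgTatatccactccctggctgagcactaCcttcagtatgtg

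A read outside such positions fits more than one copy, and how the authors assigned these reads is not given in the sources used here. The value for Bcl2a1b is therefore uncertain. The start of the Bcl2l11 gene also overlaps the end of that Acoxl gene, which stood at 3.09 to 3.61 RPKM over the 6 libraries, and the library kit does not mark strand.

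The read totals used to scale the RPKM values were 26170000 to 35940000, recovered from the step that 1 read makes in them. Whether such a total counts all mapped reads or only those assigned to genes is not known. At 1 RPKM a kilobase of transcript thus rested on 26.17 to 35.94 reads. Of the defining markers of CD8 T cells, Cd3e ran from 192 to 209 RPKM and Cd8a from 90.9 to 107 RPKM over the 6 libraries. Some others of that list varied more. Their standard deviation reached 36.6% of the mean, against 2.69% for Cd3e and 5.78% for Cd8a. Of that list's 9 genes, 0 passed in limma, against 3.95% of all genes tested. An unadjusted p under 0.05 was found for 1 of the 9, against 20.2% of all genes tested. Groups did not overlap for 1 gene higher and 1 gene lower in GFP-hi, against 17.1% and 9.84% of all genes tested. Among B cell, myeloid, erythroid and NK cell markers, the highest were Cst3 (18.4 to 24.5 RPKM) and Cd79b (10.6 to 14.1 RPKM). Of these 4 lists 3 of 7, 2 of 10, 1 of 8 and 1 of 5 genes matched a row. The erythroid gene Hba-a1 reached 1.94 RPKM. Eomes, the 1 matched gene of the NK cell list, reached 8.14 RPKM, while Ncr1, Klrb1c, Klre1 and Klra8 matched no row. Eomes alone does not show NK cells in these libraries. Cd79b was above GFP-lo in every GFP-hi library (limma, adjusted p = 0.075). Of the CD4 T cell list, Cd40lg was lower (-1.13, adjusted p = 0.011) and Izumo1r higher (1.17, adjusted p = 0.00087) in GFP-hi cells. The part of other cell types in the values below was not tested. Neither Nr4a1 (0.02, adjusted p = 0.98) nor the reporter transcript (0.15, adjusted p = 0.42) passed the test, and both overlapped between the populations. GFP-hi replicate 2 and GFP-lo replicate 2 stood apart by heat-shock and dissociation genes, with list sums of 7748 and 8656 RPKM against 3534 to 4535 RPKM in the other 4 libraries. Among those 4, GFP-hi libraries (3534 and 3622 RPKM) lay below GFP-lo libraries (4535 and 4498 RPKM). The list joins heat-shock genes to rapidly induced, immediate-early genes, so these sums hold both kinds and do not measure heat-shock RNA alone. The list's median log2 difference was -0.23, with 15 of 22 genes negative. In limma 0 passed the threshold, and 1, an immediate-early gene, had an unadjusted p under 0.05. Of all genes tested, 44.5% were negative, 3.95% passed and 20.2% had an unadjusted p under 0.05. The list's heat-shock genes had estimates of both signs, while its immediate-early genes were negative except for Nr4a1. For the whole list, the median and the number of genes past the threshold depended on the libraries used. The median was -0.30 with 3 genes lower without both replicate 2 libraries, and 0.12 without GFP-lo replicate 2 alone. The part of this difference in the lower values of Bbc3 and Pmaip1 was not tested.

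By level per length, Mcl1 was far above every other member. It averaged 135 ± 16.3 RPKM in GFP-hi cells, against 141 ± 14.7 RPKM in GFP-lo (SD, n = 3 each), at the 98.8th percentile of listed genes. Bax followed at 41.2 to 46.5 RPKM over the 6 libraries. Bcl2, at 20.7 to 24.9 RPKM, and Bbc3, at 11.8 to 27.2 RPKM, had overlapping ranges, and that of Bbc3 also reached into that of Pmaip1. Bid (9.63 to 10.4 RPKM), Pmaip1 (5.98 to 13.7 RPKM) and Bcl2l11 (5.98 to 11.2 RPKM) could not be ordered, since their ranges overlap. Bcl2a1b (2.67 to 3.86 RPKM) and Bcl2l1 (1.82 to 2.23 RPKM) were the lowest and did not overlap. The lowest, Bcl2l1, still rested on 47.7 to 71.7 reads per kilobase.

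**Figure D1:**
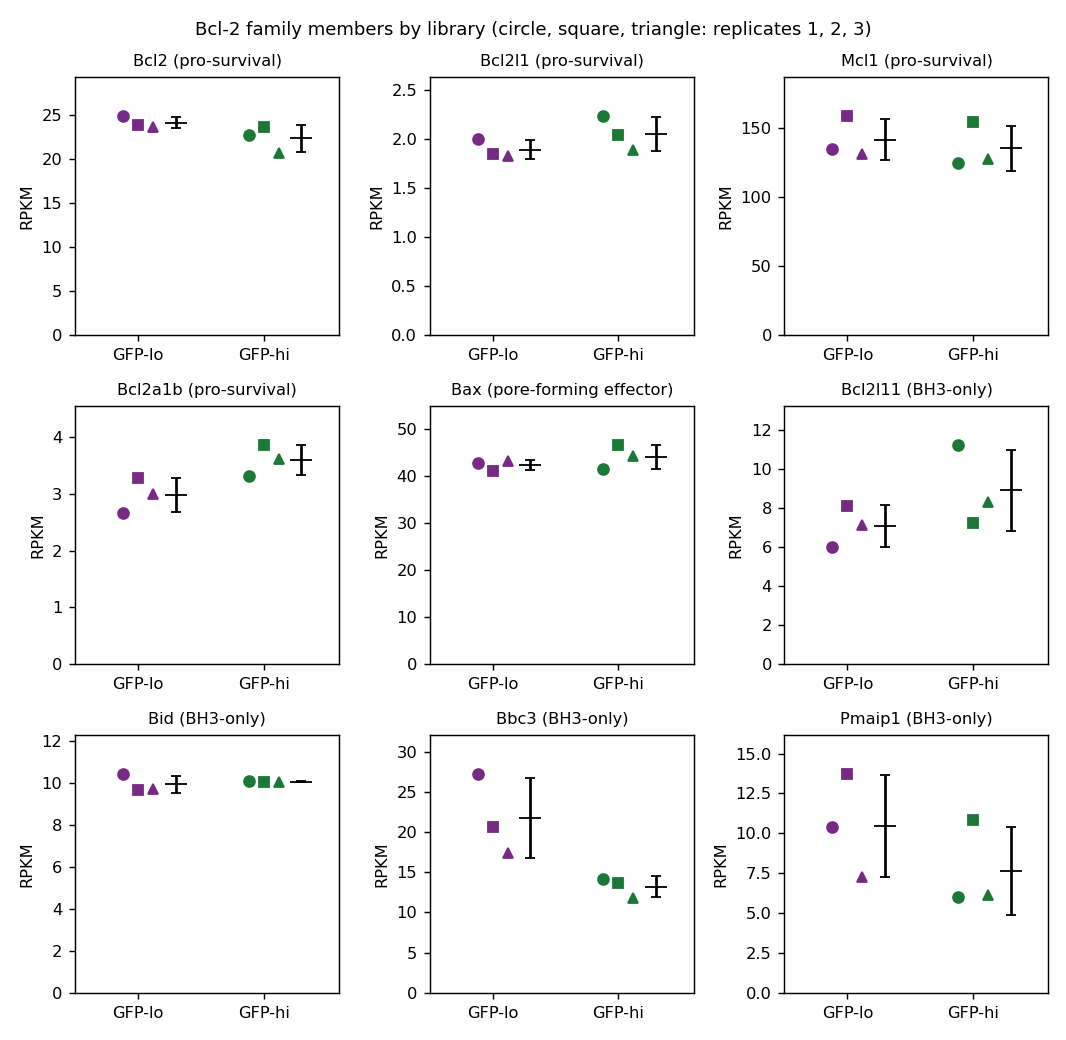
RPKM (vertical axes, each from 0) of the 9 matched members in each library, with GFP-lo in purple and GFP-hi in green; symbols mark replicates and black bars the mean ± SD over 3 libraries. Bbc3 lies between 11.8 and 14.2 RPKM in GFP-hi and between 17.4 and 27.2 RPKM in GFP-lo libraries, whereas most other members overlap.

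Among the members, 1 of 9 passed the test: Bbc3, which was lower in GFP-hi cells. Across all 9351 genes tested, 3.95% passed in either direction, 2.46% higher and 1.49% lower. The 8 other members had adjusted p values from 0.20 to 0.89 (limma). The median log2 fold change was 0.02 over the 9 members and 0.02 over all genes tested. Groups did not overlap for 2 of the 9 members, against 26.9% of all genes tested. Of these, Bcl2a1b lay higher in GFP-hi, as did 17.1% of all genes, and Bbc3 lower, as did 9.84%. The same members had an unadjusted p under 0.05, which 20.2% of all genes had, 12.9% higher and 7.3% lower.

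Bbc3 encodes PUMA, a BH3-only protein that can bind all the major pro-survival members and is a classical target of p53 and of FOXO3. Its RPKM was 14.2, 13.7 and 11.8 in the GFP-hi libraries and 27.2, 20.6 and 17.4 in the GFP-lo libraries. Each GFP-hi library was lower than each GFP-lo library, and GFP-lo replicate 1 was the highest. GFP-hi cells averaged 13.2 ± 1.29 and GFP-lo cells 21.7 ± 4.98 RPKM (SD, n = 3 each). This gave a log2 difference of -0.66 (SE 0.15, 95% interval -0.99 to -0.32), which passed at an adjusted p of 0.049 in limma. In such bulk samples, fewer cells with the transcript and less of it per cell cannot be told apart. The Bbc3 difference was larger in size than that of 99.0% of genes tested. Its reads numbered 347 to 977 per kilobase.

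The call for Bbc3 lay at the edge of the threshold and rested on all but 1 of the libraries. It was kept without GFP-lo replicate 3 (-0.80, adjusted p = 0.030). It was lost without GFP-hi replicate 1 (-0.71, adjusted p = 0.099), GFP-hi replicate 2 (-0.68, 0.090), GFP-hi replicate 3 (-0.58, 0.13), GFP-lo replicate 1 (-0.49, 0.073) and GFP-lo replicate 2 (-0.68, 0.13). Without both replicate 2 libraries, which had the most heat-shock RNA, the difference was -0.71 (limma, adjusted p = 0.20). It was negative in all 17 alternatives and passed in 6 of them.

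Pmaip1 encodes NOXA, a BH3-only protein that binds MCL-1 and A1 and promotes the breakdown of MCL-1. The GFP-hi libraries held 5.98, 10.8 and 6.14 RPKM of it, and the GFP-lo libraries 10.4, 13.7 and 7.27 RPKM. The populations overlapped, and within each the replicate 2 library was the highest. The log2 difference was -0.41 (95% interval -0.98 to 0.16), at an adjusted p of 0.41 in limma. Bag3, a co-chaperone, was likewise highest in the replicate 2 library of each population, with 1.48, 2.84 and 1.32 RPKM against 2.68, 5.03 and 2.46 RPKM, and a log2 difference of -0.60 (adjusted p = 0.23 in limma). Leaving out 1 library moved the Pmaip1 difference between -0.66 (GFP-hi replicate 2) and -0.21 (GFP-lo replicate 2). Leaving out both replicate 2 libraries gave -0.46, with an unadjusted p of 0.024 and an adjusted p of 0.24 in limma.

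Bcl2l11 encodes BIM, the BH3-only protein best known for deleting self-reactive and cytokine-deprived T cells. Its RPKM was 11.2, 7.21 and 8.32 in GFP-hi and 5.98, 8.11 and 7.12 in GFP-lo libraries. GFP-hi replicate 1 was the highest, and the other 5 libraries overlapped. The estimate pointed opposite to that of Bbc3, with a log2 difference of 0.29 (95% interval -0.06 to 0.63), at an adjusted p of 0.35 in limma. It was 0.12 once GFP-hi replicate 1 was left out and 0.41 once GFP-hi replicate 2 was. Leaving out both replicate 2 libraries gave 0.50, with an unadjusted p of 0.014 and an adjusted p of 0.20 in limma. Bid, which links death receptors to mitochondria after cleavage by caspase-8, was nearly constant at 10.09, 10.03 and 10.02 RPKM in GFP-hi libraries, against 10.4, 9.63 and 9.72 RPKM in GFP-lo. The interval of its log2 fold change ran from -0.11 to 0.14.

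Bax, the pore-forming effector, had 41.5, 46.5 and 44.2 RPKM in GFP-hi libraries, against 42.9, 41.2 and 43.2 RPKM in GFP-lo. These overlapped, and its log2 difference was 0.05 (95% interval -0.08 to 0.19), at an adjusted p of 0.67 in limma. Relative to the mean of 6 libraries, the standard deviation was 2.77% for Bid, 4.56% for Bax and 6.13% for Bcl2. It was 22.3% for Bcl2l11, 32.5% for Bbc3 and 34.1% for Pmaip1, with a median of 8.44% over all genes tested. These values span both populations and so include the difference between them, as for Bbc3.

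**Figure D2:**
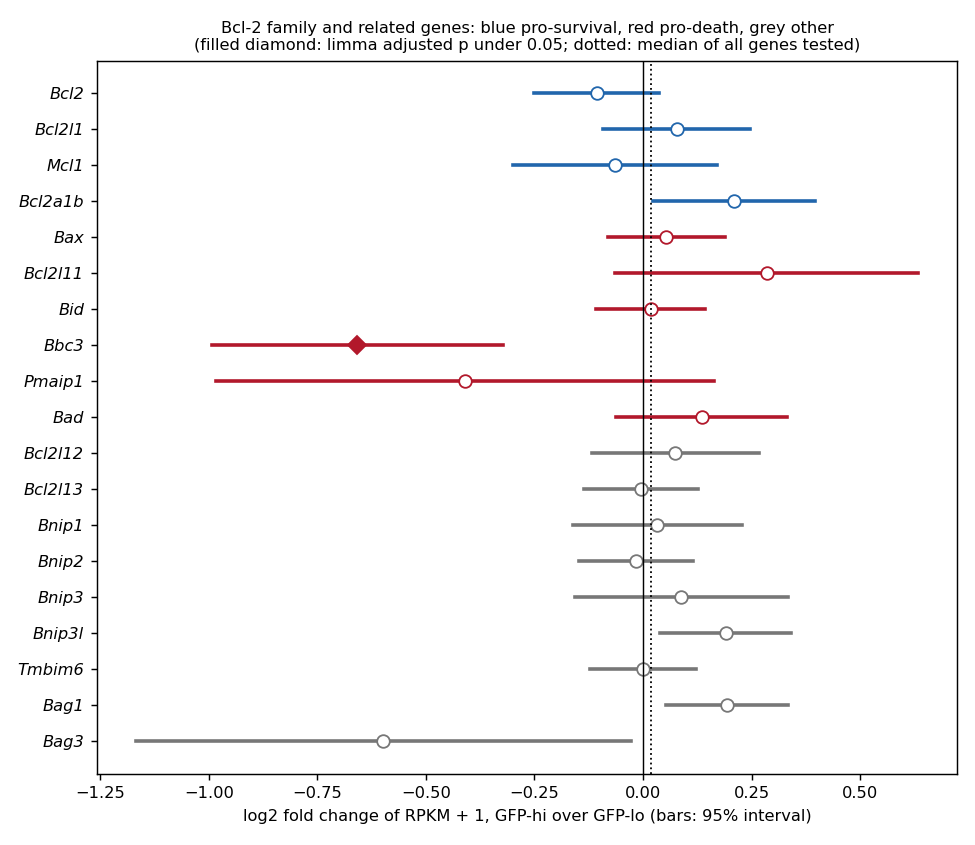
Log2 fold change of RPKM + 1, GFP-hi over GFP-lo (horizontal axis), with its 95% interval for the 9 members, Bad and 9 related genes; blue marks pro-survival, red pro-death and grey other genes. Bbc3, at -0.66, is the filled diamond that passed the test, and the intervals of Bcl2, Bcl2l1 and Mcl1 include 0.

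On the pro-survival side, no member passed the test. Bcl2 had 22.7, 23.7 and 20.7 RPKM in the 3 GFP-hi libraries, against 24.9, 23.9 and 23.7 RPKM in GFP-lo. The populations overlapped by GFP-hi replicate 2 alone, which lay just above GFP-lo replicate 3. The log2 difference was -0.11 (95% interval -0.25 to 0.04), at an adjusted p of 0.40 in limma. Bcl2l1, which encodes BCL-xL, had 2.23, 2.04 and 1.88 RPKM against 1.996, 1.845 and 1.823 RPKM. Its interval ran from -0.09 to 0.25 (limma, adjusted p = 0.62).

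Bcl2a1b, an A1 copy and a known NF-κB target, had 3.32, 3.86 and 3.62 RPKM in GFP-hi libraries, against 2.67, 3.28 and 2.99 RPKM in GFP-lo. All GFP-hi values lay above all GFP-lo values, by 3.32 against 3.28 RPKM at the nearest point. The log2 fold change was 0.21, with a 95% interval from 0.02 to 0.40, and an unadjusted p of 0.032 became 0.20 after adjustment over all genes (limma).

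Mcl1, whose protein is short-lived and is required for T-cell survival, had 124, 154 and 127 RPKM in GFP-hi libraries, against 135, 158 and 131 RPKM in GFP-lo. The replicate 2 library was the highest of each population, as for Pmaip1. Its log2 difference was -0.07 (95% interval -0.30 to 0.17), at an adjusted p of 0.78 in limma, and turned to 0.018 without GFP-lo replicate 2. The part of heat-shock and dissociation genes in the levels of Mcl1 and Pmaip1 was not tested.

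**Figure D3:**
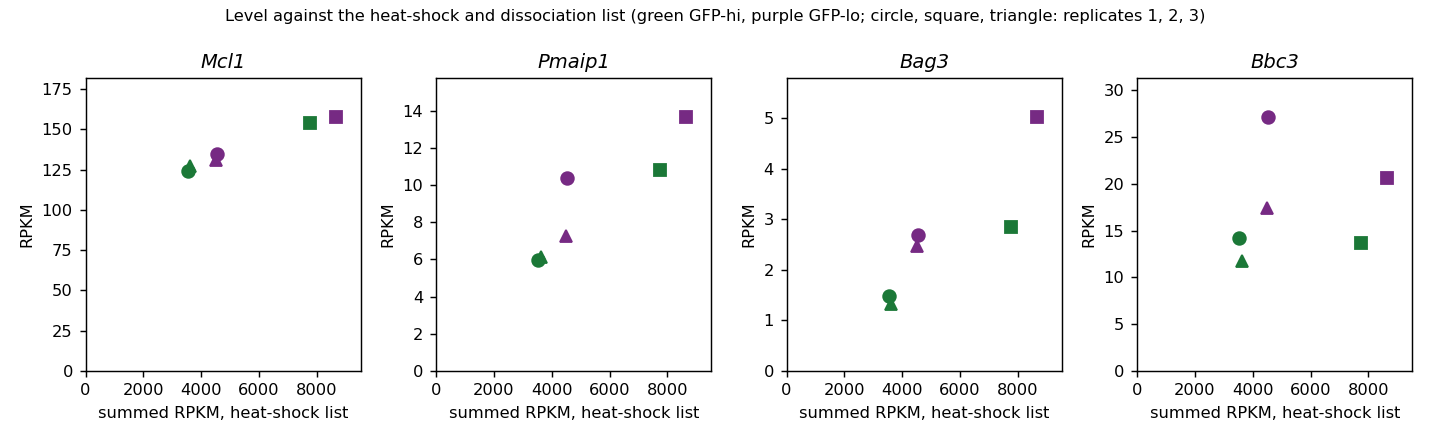
RPKM of Mcl1, Pmaip1, Bag3 and Bbc3 (vertical axes, from 0) against the summed RPKM of 22 heat-shock and dissociation genes (horizontal axis) in each library, green for GFP-hi and purple for GFP-lo. The replicate 2 libraries, at 7748 and 8656 RPKM, hold the highest Mcl1, Pmaip1 and Bag3, while the highest Bbc3 is in GFP-lo replicate 1.

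Pro-survival and pro-death members were then set against each other as summed RPKM, as a description with no test. The 4 pro-survival members summed to 153, 184 and 153 RPKM in GFP-hi libraries, against 164, 187 and 159 RPKM in GFP-lo. Mcl1 made up 81.5% to 84.5% of these sums. The 5 pro-death members summed to 82.97, 88.3 and 80.5 RPKM in GFP-hi libraries, against 96.9, 93.2 and 84.7 RPKM in GFP-lo, and Bax made up 44.2% to 55.0%. Both sums overlapped between the populations. The log2 ratio of pro-survival to pro-death RPKM averaged 0.95 ± 0.091 in GFP-hi and 0.89 ± 0.12 in GFP-lo (SD, n = 3 each), a difference of 0.06 that is smaller than either SD. It was -0.0036 without GFP-lo replicate 1 and 0.12 without GFP-lo replicate 2, and 0.17 when the members' log2 values were averaged in place of their sums.

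The make-up of the BH3-only sum was described in the same way. Bbc3 made up 34.3%, 32.8% and 32.5% of their summed RPKM in GFP-hi and 50.4%, 39.6% and 42.0% in GFP-lo libraries. Bcl2l11 made up 27.0%, 17.3% and 22.9% in GFP-hi and 11.1%, 15.6% and 17.1% in GFP-lo libraries. Neither share overlapped between the populations, although the nearest values for Bcl2l11 were 17.3% and 17.1%. These shares contain the Bbc3 difference itself and add no separate evidence for it. The Bcl2l11 share is likewise divided by a sum that contains Bbc3, and the RPKM of Bcl2l11 overlapped between the populations.

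Pairs of known binding partners were compared next. The log2 ratio of Bcl2 to Bcl2l11 was 1.02, 1.72 and 1.31 in GFP-hi and 2.06, 1.56 and 1.73 in GFP-lo libraries, and the populations overlapped. Mcl1 to Pmaip1 gave 4.38, 3.83 and 4.37 against 3.69, 3.53 and 4.17, also with overlap. Bcl2l1 to Bax differed least, with -4.43 ± 0.18 in GFP-hi and -4.49 ± 0.071 in GFP-lo (SD, n = 3 each).

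**Figure D4:**
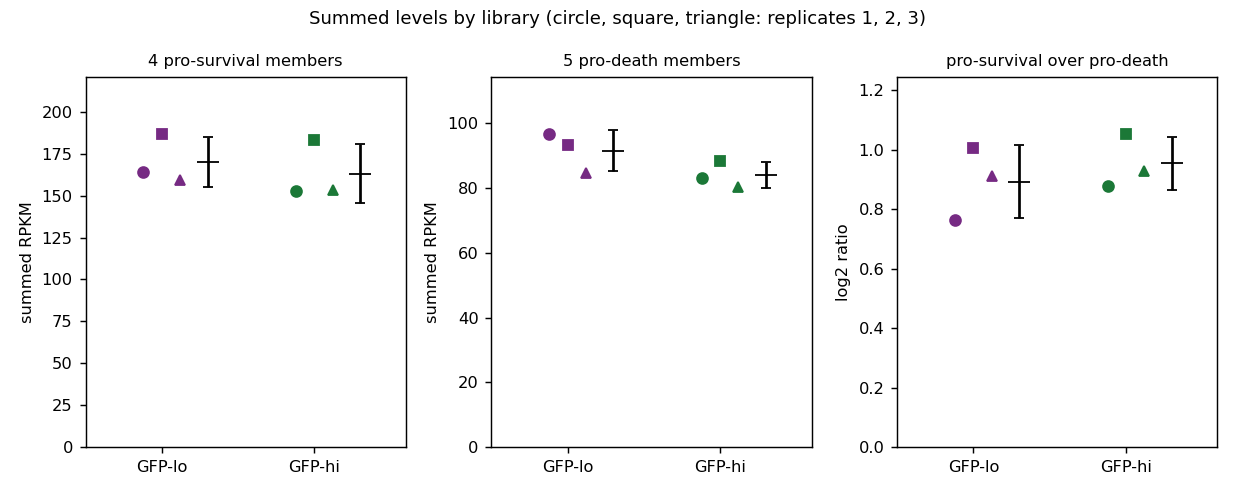
Summed RPKM of 4 pro-survival members (left) and 5 pro-death members (middle), and the log2 ratio of the sums (right), by library; axes start at 0, and black bars show the mean ± SD over 3 libraries. Purple GFP-lo and green GFP-hi points overlap in each panel, with ratios between 0.76 and 1.06.

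Other members of the wider family were sparse. Of 5 further pro-death genes, Bad and Bmf matched a row of the table. Bad, a BH3-only protein controlled by survival kinases, had 2.22, 2.77 and 2.81 RPKM in GFP-hi libraries, against 2.23, 2.43 and 2.15 RPKM in GFP-lo (limma, adjusted p = 0.43). Bmf, a BH3-only protein released from the cytoskeleton, was under the filter, with 0.279, 0.502 and 0.329 RPKM against 0.161, 0.134 and 0.269 RPKM. Its groups did not overlap, but it rested on 3.8 to 17.0 reads per kilobase, and without the filter its adjusted p was 0.35 (limma). No row matched the 5 further pro-survival symbols, which include Bcl2l2 and the other A1 copies.

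Distant relatives and partners were tested for 9 genes, of which 0 passed in limma and 3 had an unadjusted p under 0.05. Of all genes tested, 3.95% and 20.2% did so. Bag1, a co-chaperone that binds BCL-2, had a log2 difference of 0.19 (adjusted p = 0.13 in limma). Bnip3l, a mitophagy receptor, had 0.19 (adjusted p = 0.16 in limma). Its relative Bnip3 (0.09) and the similarly named Bnip1 (0.03) and Bnip2 (-0.02) lay nearer to 0. Bcl2l12 (0.07), Bcl2l13 (-0.01) and Tmbim6 (-0.0001), an endoplasmic reticulum protein that suppresses BAX-induced cell death, did not pass either.

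Downstream of the family, cytochrome c, APAF1 and caspase-9 form the apoptosome that activates the executioner caspases. Of 19 genes tested on this mitochondrial route, 0 were lower in GFP-hi cells, and Casp6 was among those higher. Of all genes tested, 1.49% were lower and 2.46% higher. The list had a median log2 fold change of 0.08, against 0.02 over all genes tested. Casp6, an executioner caspase, had 14.7, 16.0 and 15.1 RPKM in GFP-hi libraries, against 12.1, 12.4 and 12.7 RPKM in GFP-lo, a log2 difference of 0.28 (adjusted p = 0.031 in limma). Each GFP-hi library lay above each GFP-lo library. Leaving out 1 library at a time, Casp6 kept its call in 0 of 6 fits, with adjusted p values up to 0.12.

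The death receptor route, which BID joins to the mitochondria, held 16 tested genes. Of these, 0 passed in limma and 5 had an unadjusted p under 0.05, against 3.95% and 20.2% of all genes tested. Casp8 (0.10, adjusted p = 0.32) and the NF-κB inhibitor Tnfaip3 (-0.07, adjusted p = 0.88) were the most abundant genes of this route. Its median was -0.05. A further list held 17 tested genes that bear on the turnover or phosphorylation of family proteins. Here 0 passed in limma and 2 had an unadjusted p under 0.05, against the same shares of all genes tested. The most abundant were the kinase genes Rps6ka1 (0.14, adjusted p = 0.25) and Akt1 (0.04, adjusted p = 0.80).

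Upstream regulators were described from 3 lists. Among 9 tested p53, FOXO and stress-factor genes, 1 was higher and 0 were lower in GFP-hi, against 2.46% and 1.49% of all genes tested. The higher gene was E2f1, a cell cycle factor that can induce BH3-only genes. It had 2.73, 2.09 and 2.93 RPKM against 1.52, 1.32 and 1.39 RPKM, a log2 difference of 0.56 (adjusted p = 0.023 in limma). Its call was kept only without GFP-hi replicate 2 among the fits that left out 1 library (adjusted p up to 0.093). Trp53 (-0.08, adjusted p = 0.55) and Foxo1 (0.14, adjusted p = 0.18) did not pass in limma, although Foxo1 lay higher in every GFP-hi library than in any GFP-lo library. Foxo3, at 0.594 to 1.37 RPKM, was under the filter.

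The cytokine list held receptors, signal carriers, feedback suppressors such as Socs1 and Cish, and target genes of the cytokines that maintain naive T cells. Of 17 genes tested, 0 were higher and 3 were lower in GFP-hi cells, against 2.46% and 1.49% of all genes tested. The 3 lower genes all encode receptor chains. Il7r, a chain of the interleukin 7 receptor, had 68.1, 66.2 and 57.7 RPKM in the 3 GFP-hi libraries, against 119, 111 and 105 RPKM in GFP-lo. It had a log2 difference of -0.80 (adjusted p = 0.0022 in limma), Il6ra of -0.53 (adjusted p = 0.032) and Il4ra of -0.42 (adjusted p = 0.028). Il7r passed whichever of the 6 libraries was left out, with differences from -0.84 to -0.73. Il6ra kept its call only without GFP-hi replicate 2 or replicate 3 (adjusted p up to 0.10), and Il4ra only without GFP-lo replicate 1 (adjusted p up to 0.0775).

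The NF-κB list contained subunits, inhibitors and kinases of the pathway that drives A1 transcription. All 11 genes tested had a negative log2 fold change, as did 44.5% of all genes tested, and the median was -0.18. The number was also 11 under median centring, trimmed mean of M values and quantile scaling, while leaving out GFP-hi replicate 1 left 9, and leaving out GFP-hi replicate 3 or any 1 of the GFP-lo replicates left 10. Of these genes 1 was lower past the threshold, against 1.49% of all genes tested. This was Nfkbie, an inhibitor of the pathway, with a log2 difference of -0.31 (adjusted p = 0.030 in limma). Its call was kept only without GFP-hi replicate 2 when 1 library was left out (adjusted p up to 0.12). The estimate for Bcl2a1b, at 0.21, had the opposite sign to the list.

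**Figure D5:**
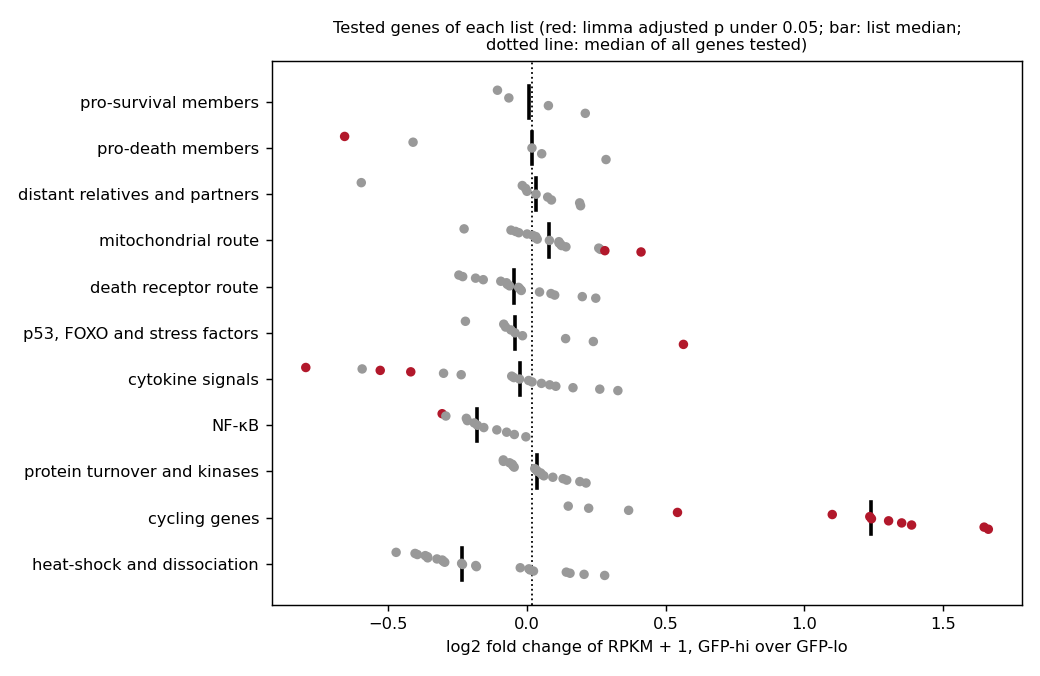
Log2 fold change of RPKM + 1, GFP-hi over GFP-lo (horizontal axis), of each tested gene in 11 lists (rows); red points passed the test, black bars are list medians and the dotted line is the median of all genes tested, 0.02. Cycling genes lie to the right with a median of 1.24, and all 11 NF-κB genes lie left of 0.

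Cycling genes differed between the populations as well. The 15 genes of that list summed to 122 to 136 RPKM in GFP-hi and 81.8 to 86.9 RPKM in GFP-lo libraries. Of 12 tested, 9 were higher in limma, as were 2.46% of all genes tested. Some of them averaged under 1 RPKM in GFP-lo and met the filter only through the GFP-hi libraries, which favours this direction. With a mean RPKM of at least 5, 2 of 4 tested were higher, and the median log2 difference was 0.38 in place of 1.24. The part of cycling cells in the values of Bbc3, Casp6 and E2f1 was not tested.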

How the data were processed

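RNA had been sequenced from 3 GFP-hi and 3 GFP-lo samples with the SMART-seq v4 and Nextera XT kits, per the labels' protocols. Reads were aligned with STAR to mm10, per the submitters' processing notes; the read counter and annotation are not given in the sources used here. The authors deposited RPKM values, 1 column per sample per the file headers. Depth was recovered from those of 800 single-transcript genes of GENCODE M21 that had low counts, 379 to 433 per library. Of these gene values, 90.1% to 92.1% came to a whole number of reads to within 0.1. Reads include PCR copies, so such depths cover counting error only. The 9351 genes whose RPKM averaged 1 or more were tested with limma 3.58.1 (R 4.3.3) on log2(RPKM + 1) with a mean-variance trend, two-sided, with Benjamini-Hochberg adjustment over all genes tested and a threshold of 0.05. Such fold changes understate those of low genes. In 5 simulations over these genes with 200 changed by 1 on the log2 scale, 99.5% were recovered and 5.98% of calls were false. The simulated noise was independent between genes and held no shared library effect, such as that of heat-shock RNA. A change of 1 was also larger than that of Bbc3 (-0.66). The simulations therefore do not give the power or reliability for the differences reported here. The labels state no pairing; replicate numbers follow the order of deposition and only name libraries. The members, lists and alternatives were chosen with earlier results of these data known. The text names all members and matched family genes, from each pathway list the genes past the threshold or else the 2 most abundant, and the most abundant marker of each other cell type, with cycling and heat-shock genes given by list only, except for results on some genes that are not reported here; Cd3e, Cd8a, Izumo1r, Trp53, Foxo1, Foxo3, Socs1, Cish and Acoxl were added after their values were seen. Columns of values left unused numbered 0.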

Additional observations from a re-analysis of the deposited data

How the results depend on the processing

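No paired analysis was run, because the labels give no replicate numbers and state no shared animal or batch. Whether any GFP-hi and GFP-lo libraries belong together is therefore unknown. If some do, the unpaired fit counts variation that they share as spread between libraries. Of the members, 0 were called lower, in place of 1, without a filter, with a mean RPKM of at least 5, with trimmed mean of M values scaling, without the variance trend, with robust eBayes and without both replicate 2 libraries; 0 to 1 were called without 1 library at a time, and 0 were called higher under every alternative. Signs turned for Bid with trimmed mean of M values (-0.0064) and without GFP-lo replicate 2 (-0.00098), for Bax without both replicate 2 libraries (-0.0068) and for Mcl1 without GFP-lo replicate 2 (0.018). Without 1 library at a time, Bid ran from -0.00098 to 0.049, Bax from 0.014 to 0.095 and Mcl1 from -0.16 to 0.018. The difference in log2 balance was 0.17 as a mean of log2 values over members and ran from -0.0036 to 0.12 without 1 library. Over all genes, 230 were higher and 139 lower; the counts were 119 and 83 with a mean RPKM of at least 5, 783 and 499 with array quality weights, and 47 and 43 without both replicate 2 libraries. Without 1 library, 73 to 173 were higher and 60 to 125 lower. Trimmed mean of M values scaling split the calls into 175 higher and 170 lower, 50.7% higher in place of 62.3%. Fewer genes or samples entered the stricter filter and the reduced fits; the other causes were not tested. Summing the A1 copies was not run, since 1 copy was matched. Bcl2l1 and Bcl2a1b were under the stricter filter.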
